A study of Drosophila melanogaster with 4 samples.

Results

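The regions described here are long stretches of DNA enriched for histone H3 in chromatin of adult fly heads that the study's 2 replicates did not both pick up on their own. They come from the authors' list for both replicates jointly, below named the combined list. They were selected on measured values, namely a length of at least 3000 bp and the absence of an overlap, by 1 bp or more, with regions of both single-replicate lists. Of 16757 combined regions 839 were that long, and 641 of these, 3.83% of the list, were not met by both replicate lists. They are called long unshared regions below. They held 8.75% of the bases in the combined list. The other 198 long regions were met by both lists and are called long shared regions. The 15918 regions shorter than 3000 bp are called short regions. Long regions were unshared in 76.4% of cases. Among short regions nearly all were unshared, since both lists met only 271 of them (1.70%).

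The H3 ChIP group and the Input group each had 2 libraries from heads of mixed adult Oregon-R flies of wild type genotype. The ChIP libraries were made with an antibody named only as H3 antibody3, and the labels pair each with the Input of the same replicate number, which enters here only through the authors' calling. Heads were sieved from pooled flies of population cages, so each list averages over all cell types of the head and over many animals, and the labels give neither the sex ratio nor the ages of the flies collected. Adults were kept in overlapping 22-day cycles, and the antibody was left on the chromatin for 15 hours. Separate cages for the replicates are not recorded, and their spread may be partly technical. The data are positions on FlyBase release 5 and a score for each region. The score is the authors' own, with a scale that is not given, and it is used only to describe and rank regions within a list. Read depth is unknown, and an annotation or genome of release 5 was not used here, so regions are given by position without genes or bases.

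Histone H3 is one of the core proteins around which DNA is wrapped in every nucleosome. ChIP with an antibody against H3 itself, rather than against a modified form of it, is commonly used as a measure of nucleosome density and as the background for histone mark profiles. In Drosophila the arms 2L, 2R, 3L, 3R and X hold most genes. The sequences named Het hold assembled pericentric heterochromatin, which is rich in repeats, and U collects pieces that were not placed on a chromosome.

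Length and overlap with the replicate lists chose these regions, so both are described without a test. Long unshared regions were 3001 to 10323 bp long, with a median of 3447 bp and the middle 50% between 3203 and 3946 bp. There were 190 of up to 3249 bp, 144 from 3250 to 3499 bp, 156 from 3500 to 3999 bp, 106 from 4000 to 4999 bp and 45 of 5000 bp or more. The unshared made up 82.3%, 86.2%, 78.4%, 70.2% and 49.5% of all combined regions in these classes, so the longest were shared most often. Regions of this size were rare in the single-replicate lists: 14 of the 2327 regions of replicate 1 (0.602%) and 29 of the 2779 of replicate 2 (1.04%) reached 3000 bp, against 5.01% of the combined list. Of those long replicate regions 9 and 16 met a long unshared region. Just inside the length limit, 77 long unshared regions of 3001 to 3096 bp had a median score of 0.425 and a median of 27.7% of the 10 kb on either side in other combined regions. Just outside it, the 104 combined regions from 2903 bp up to the limit that were likewise not met by both lists had a median score of 0.418 and a median flank coverage of 26.6%. With shared ones included, these 119 regions had 0.421 and 28.6%.

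Most long unshared regions had partial support from 1 replicate. Replicate 1 alone met 175 of the 641 (27.3%), replicate 2 alone met 244 (38.1%) and neither met 222 (34.6%). Of short regions, replicate 1 alone met 9.87%, replicate 2 alone met 12.3% and neither met 76.1%. Among regions of the major arms not met by both lists, neither list met 95.9% at 1001 to 1100 bp and 63.8% at 1501 to 2000 bp. That share was 46.7% from 2501 bp up to the limit and 41.9% at 3000 to 3500 bp. No replicate region was shorter than 1301 bp. The part of region length in the difference between long unshared and short regions was not tested. Among long unshared regions met by 1 replicate, replicate 2 accounted for 58.2%, and it held 54.4% of all replicate regions. The support was usually a single shorter region lying inside the long one: 160 of 175 were met by 1 region of replicate 1 and 227 of 244 by 1 region of replicate 2. Of the replicate regions concerned, 81.1% and 77.5% lay wholly inside the long region. They covered a median of 46.3% of its length in replicate 1 and 45.9% in replicate 2. Over all long unshared regions, the replicate 1 list held 13.9% and the replicate 2 list 19.4% of the bases (16.6% ± 3.86, SD, n = 2), against 11.2% and 13.6% of the bases of short regions (12.4% ± 1.66). Because the rule removes regions met by both, these shares describe the choice and say nothing of recurrence.

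A few long unshared regions were nearly filled by 1 replicate. The region at 3R 13312663 to 13315993 (3331 bp, score 0.511) lay entirely within 1 region of replicate 1, and 3R 26254062 to 26258004 (3943 bp, score 0.540) was covered to 97.7% by that list. In replicate 2 the fullest were 2R 4657140 to 4660289, at 98.1%, and 3L 9208366 to 9211503, at 97.3%. By the rule, none of these could be met by the other replicate list. A region absent from a list is one that fell short of the authors' threshold there, which is not given, and at unknown depth this does not show a lack of enrichment.

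Replicate regions inside long unshared regions were close in score to the rest of their list. The median score of replicate 1 regions meeting one was 0.585 (190 regions), against 0.578 for those meeting a short combined region (1824 regions). In replicate 2 it was 0.631 (260 regions), against 0.596 (2197 regions). On the major arms alone the pairs were 0.583 against 0.574 and 0.627 against 0.594. The direction was thus the same in both replicates, with a difference well inside the middle 50% of scores in each. Those replicate regions were also longer, with medians of 1631 bp in replicate 1 and 1618 bp in replicate 2, against 1488 and 1498 bp for replicate regions meeting short combined regions.

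The 10 longest were 6394 to 10323 bp long, all on autosomal arms, and 6 of them lay on 2R. The longest, 2R 2733935 to 2744257 (10323 bp, score 0.439), was met by 1 replicate 2 region over 18.5% of its length. The next, 2R 15146995 to 15155729 (8735 bp, score 0.447), was met by 3 replicate 2 regions over 45.8%. The region at 2L 1957813 to 1965339 (7527 bp, score 0.401) was met by neither replicate list. Of the 10 in all, 4 were met by neither, 3 by replicate 1 alone and 3 by replicate 2 alone. The region at 3R 19098230 to 19104637 (6408 bp, score 0.478) stood out for its support, with 67.6% of it in a single region of replicate 1. These long regions had scores of 0.362 to 0.485, within the ordinary range of the list.

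The first comparison asked where in the genome long unshared regions lie. They were most frequent on the right autosomal arms and sparse on X. The 5 major arms carried 615 of them, with 187 on 3R, 166 on 2R, 112 on 2L, 108 on 3L and 42 on X. Relative to sequence length, 2R had 7.85 per Mb and 3R 6.70 per Mb, against 4.87 on 2L and 4.40 on 3L. The X had 1.87 per Mb, against 5.93 per Mb over the 4 autosomal arms, a ratio of 0.316. Short regions were thinner on X as well, at 84.2 per Mb on X against 136.5 per Mb on the autosomal arms. With a ratio of 0.617 that difference was smaller. Regions just below the length limit were placed alike, among regions of the major arms not met by both lists. Of those from 2501 bp up to the limit, 7.57% lay on X and 53.8% on the right arms. At 3000 to 3500 bp these percentages were 7.94% and 52.4%, and at 1001 to 1100 bp 15.6% and 43.7%.

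The share of combined regions that were long and unshared, which divides by the number of regions on each arm, shows the same order. It was 5.11% on 2R (95% exact binomial interval 4.38 to 5.93), 4.21% on 3R (3.64 to 4.84), 3.74% on 2L (3.09 to 4.48), 3.31% on 3L (2.73 to 3.99) and 2.17% on X (1.57 to 2.92). The intervals treat regions as independent and cover counting error only. The share on X was 0.528 times that on the autosomal arms together, which was 4.11% (3.79 to 4.45), and these intervals do not overlap. Among single arms the interval of X overlaps only that of 3L. Right arms had 1.31 times the share of left arms (2.22 times with a length limit of 4000 bp), though the intervals of 3R and 2L overlap, and no test between arms was made from a single list. Long regions on X were also more often unshared than on autosomal arms: 42 of 46 (91.3%), against 573 of 757 there (75.7%). The single-replicate lists were also thinnest on X, with 1.38% of X in replicate 1 regions and 1.84% in replicate 2 regions, against at least 2.63% and 3.26% on each autosomal arm. The part of this in the number of shared regions was not tested. The combined list covered 26.4% of 2R, 26.5% of 3R, 21.1% of 2L, 21.3% of 3L and 12.7% of X. The part of that density in the shares of long unshared regions was not tested.

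**Figure D1:**
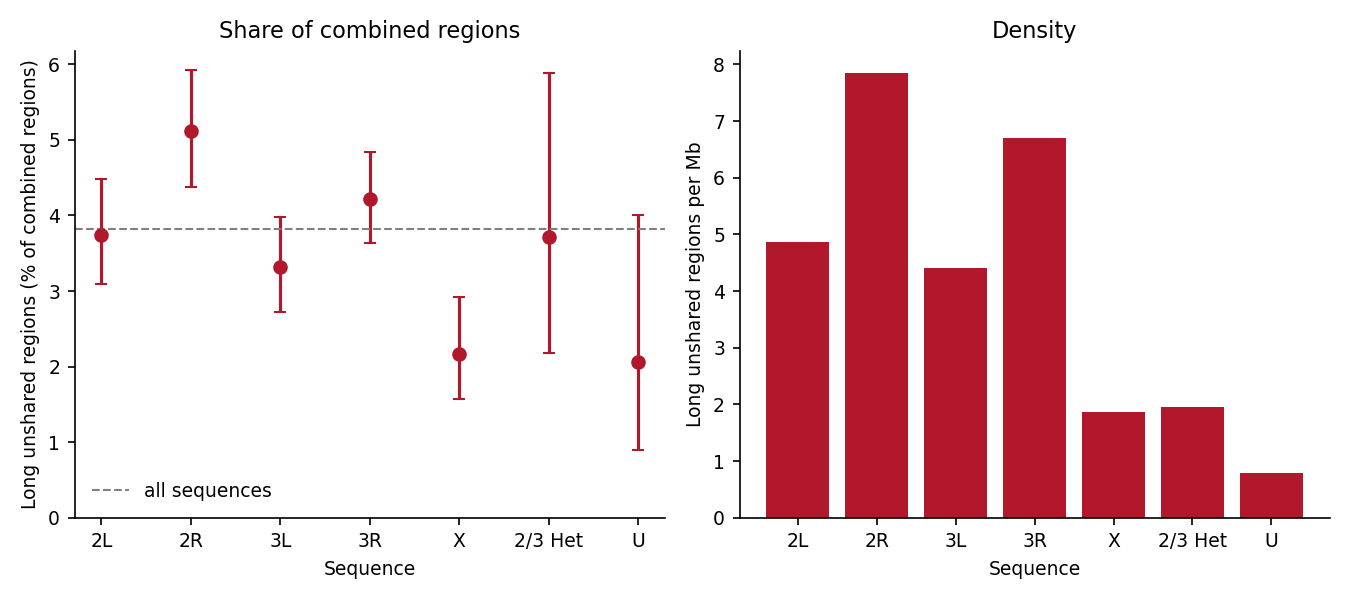
Long unshared regions as a percentage of all combined regions (left, points, with 95% exact binomial intervals as bars and the value over all sequences, 3.83%, as a dashed line) and per Mb of sequence (right, bars from 0), for the 5 major arms, the 4 autosomal Het sequences together (2/3 Het) and U. The X lies lowest among the arms on both scales, at 2.17% and 1.87 per Mb, and 2R highest, at 5.11% and 7.85 per Mb.

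Off the major arms there were 26 long unshared regions. The 4 autosomal Het sequences held 17 of them, 3.72% of their combined regions (2.18 to 5.89), an interval that includes the 4.11% of the autosomal arms. Their density was 1.95 per Mb, 0.328 times that of those arms. They were spread as 6 on 3RHet, 5 each on 2RHet and 3LHet and 1 on 2LHet. The longest of them, 3LHet 1279308 to 1285510 (6203 bp), had a low score of 0.306 and was met by neither replicate list. The next, 2RHet 1316655 to 1322388 (5734 bp, score 0.383), was met by replicate 1 over 23.5% of its length. U carried 8 (2.06%, 0.892 to 4.01), and chromosome 4 carried 1, at 17187 to 21508 (4322 bp, score 0.579, met by neither). XHet, with 4 combined regions, and YHet, with 7, had 0.

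Along the arms, long unshared regions gathered toward the end away from the centromere. The 25% of each arm farthest from the centromere held 236 of the 615 (38.4%), against 29.3% of short regions. The 25% nearest the centromere held 122 (19.8%), against 21.9% of short regions. The outer excess was largest on X, where 24 of 42 (57.1%) lay there, against 30.8% of its short regions. Of these 24, 11 lay in the single 1 Mb window X 1000001 to 2000000, described below. The outer excess was also present on 2L (44.6% against 31.1%), 2R (40.4% against 29.8%) and 3R (35.8% against 27.4%). It was absent on 3L, where the outer 25% held 25.9% of long unshared and 28.9% of short regions, and the inner 25% held 27.8% and 21.2%. This division of the arms was chosen after the positions had been seen.

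Counts per 1 Mb window followed the density of short regions only in part. In 117 full windows of the major arms there were 0 to 20 long unshared regions, with a median of 5 and the middle 50% of windows between 2 and 8. Short regions numbered 43 to 189 per window, with a median of 134. Across windows the number of long unshared regions went with that of short regions (Pearson's r = 0.677, Spearman's rho = 0.726), a description only, since both come from 1 list and share its depth. Within arms r lay between 0.354 on 3L and 0.724 on 2L, and rho between 0.380 on X and 0.842 on 2R. Windows without any long unshared region numbered 7 (5.98%; 18.2% with windows of 500 kb), of which 6 lay on X and the other on 3L, at 18000001 to 19000000, where 101 short regions lay.

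**Figure D2:**
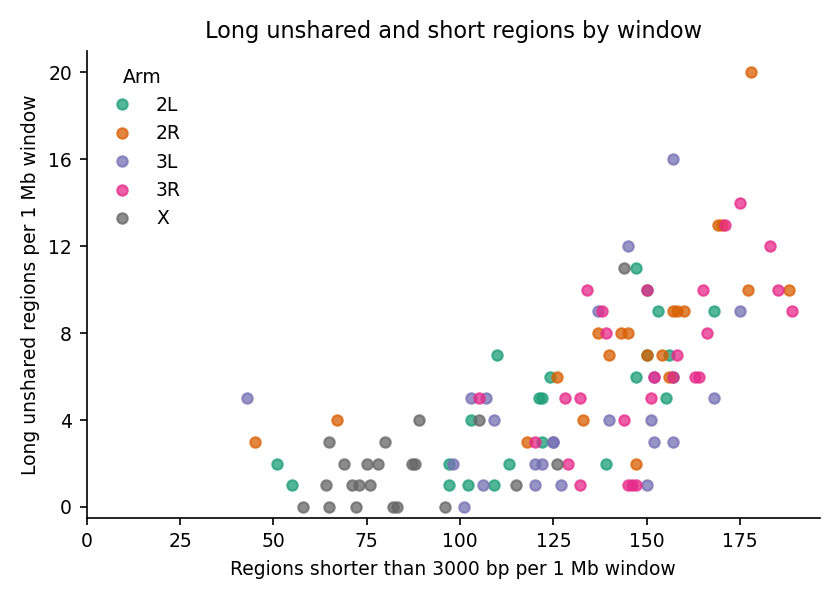
Number of long unshared regions (y axis) against number of short regions (x axis) in each of 117 windows of 1 Mb on the major arms, coloured by arm. Windows with many short regions tend to have more long unshared ones, but windows on 2R and 3L reach 20 and 16 at 178 and 157 short regions, while other windows with about 145 short regions have 1.

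The 3 fullest windows were on 3 different arms. The first, 2R 20000001 to 21000000, held 20 long unshared regions of 3001 to 5621 bp, 9.80% of its combined regions, and 16 of them had another within 20 kb. Of these 6 were met by neither replicate, 4 by replicate 1 and 10 by replicate 2. The second, 3L 22000001 to 23000000, held 16, of which 6 were met by replicate 1, 8 by replicate 2 and 2 by neither. It lies near the centromeric end of 3L. Next came 3R 26000001 to 27000000, which held 14 with a median score of 0.450.

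On X a single window held a large part of the total. The window 1000001 to 2000000 carried 11 of the 42 long unshared regions of X (26.2%), against 144 of the 1889 short regions of X (7.62%). These 11 were 3064 to 5013 bp long and had scores of 0.447 to 0.671, with a median of 0.544. Replicate 1 alone met 2, replicate 2 alone met 3 and neither met 6. They include X 1438253 to 1441771 (3519 bp), which had the highest score of any long unshared region on the major arms, at 0.671, and X 1624356 to 1628119 (3764 bp), the next, at 0.660. The window was picked out after its count was seen.

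The second comparison asked whether long unshared regions lie close to one another. The distance to the nearest other long unshared region on the same sequence had a median of 40976 bp for long unshared regions (639 with another on their sequence), against 67816 bp from short regions to the nearest long unshared one. On the major arms 35.8% of long unshared regions (220 of 615) had another within 20 kb, against 23.1% of short regions. Within 5 kb the shares were 13.5% and 7.58%. The shorter distance held within each major arm, with medians of 25039 bp against 42592 bp on 2R, 36620 bp against 48273 bp on 3R, 48617 bp against 61238 bp on 2L, 47550 bp against 83440 bp on 3L and 66553 bp against 199635 bp on X. On U it was the other way, at 525122 bp over 8 long unshared regions against 292782 bp over short ones. Long regions met by both replicates lay nearer still to long unshared ones, at a median of 30113 bp. The distance also fell with length below the limit, among regions of the major arms not met by both lists. Its median was 75955 bp at 1001 to 1100 bp and 52092 bp at 2001 to 2500 bp. It was 48521.5 bp from 2501 bp up to the limit and 45002 bp at 3000 to 3500 bp. Regions were not placed at random for comparison, so these distances are not tested against the density of each stretch of an arm.

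**Figure D3:**
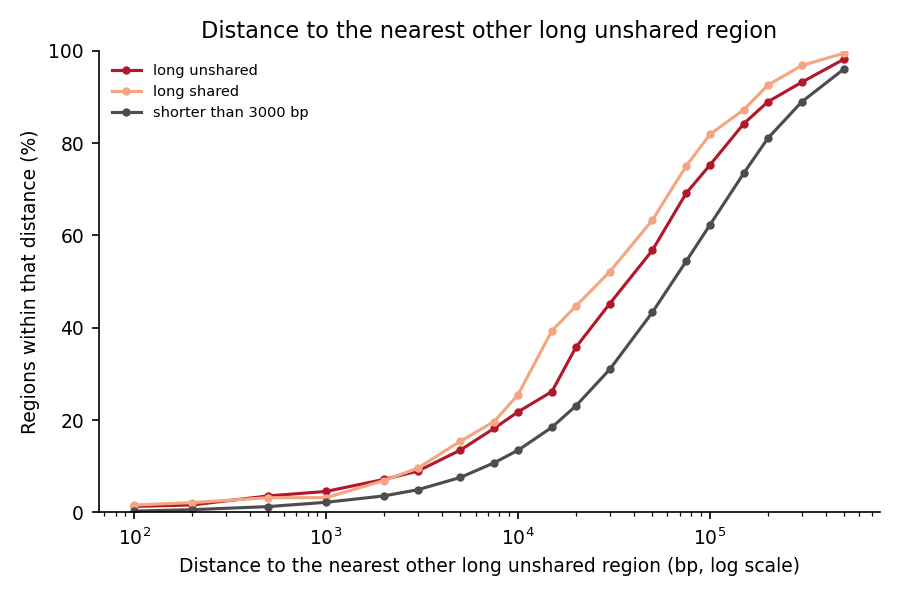
Percentage of regions (y axis) on the major arms that have another long unshared region within a given distance (x axis, bp, log scale), for long unshared, long shared and short regions. The curve of long unshared regions lies above that of short regions at 5 kb (13.5% against 7.58%), 20 kb (35.8% against 23.1%) and 100 kb (75.3% against 62.3%).

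Joined where 20 kb or less separated them, 224 long unshared regions (34.9%) formed 100 runs, and 417 stood alone. With 10 kb as the limit 21.5% were in runs, and with 50 kb 55.4%. Of the runs 86 were pairs, 10 had 3 regions and 4 had more. The largest, 2R 16775679 to 16842159, held 7 in 66481 bp together with 12 short regions, and combined regions filled 69.2% of it. Its regions were 3181 to 4454 bp long, with scores of 0.396 to 0.576. Replicate 2 alone met 4 of the 7, replicate 1 met 0 and neither met 3. The second, 2R 18122784 to 18173869, held 6 with 6 short regions between them and was filled to 76.5%. Among its 6 were 2R 18149752 to 18156359 (6608 bp, met by neither) and 2R 18138534 to 18144366 (5833 bp, met by replicate 1). Next came 3L 22370936 to 22430629, with 5 in 59694 bp and low scores of 0.326 to 0.416. No long shared region lay in these 3 runs.

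In 12 places 2 long unshared regions followed each other with less than 500 bp between them. The smallest gap was 5 bp, between 3L 17968353 to 17972236 and 3L 17972242 to 17975309, which together span 6957 bp. Both were met by replicate 2 alone. Gaps of 35 bp at 3R 12616669 to 12624027 and of 49 bp at 3L 383105 to 390875 also joined regions met by replicate 2 alone, over 7359 and 7771 bp. The pair 3L 22384135 to 22393980, 222 bp apart and 9846 bp in all, had 1 region met by replicate 1 and 1 met by replicate 2. The remaining gaps were 69 to 452 bp.

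The third comparison concerned the immediate neighbours. Long unshared regions had closer and longer neighbours than short regions had. The gap to the nearer neighbouring combined region had a median of 978 bp for long unshared regions, against 1557 bp for short ones, and gaps on either side pooled had medians of 2262 and 3299 bp. A neighbour within 500 bp was found for 32.3% of long unshared regions (207) and 23.9% of short ones, though not more often on 2L (23.2% and 24.2%), and within 100 bp for 8.74% (56) and 4.72%. The neighbour was itself 3000 bp or longer in 101 of 1282 cases (7.88%), against 1546 of 31810 (4.86%) for short regions. On the autosomal arms alone the shares were 8.20% and 5.27%, and on X 2.38% (2 of 84) and 2.38%. With the length limit set at 4000 bp instead, the direction turned, with 3 of 302 neighbours (0.993%) that long, against 478 of 33004 (1.45%). Neighbours of long unshared regions had a median length of 1523 bp, against 1418 bp for neighbours of short regions. Long shared regions were alike, with 7.83% long neighbours, 33.8% with a neighbour within 500 bp and a median nearer gap of 939 bp. Regions just below the limit were also close, among regions of the major arms not met by both lists. From 2501 bp up to the limit, 6.94% of neighbours were long and the median nearer gap was 1140.5 bp. At 3000 to 3500 bp these values were 7.30% and 1051 bp.

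Isolated long unshared regions were few. In 20 cases (3.12%) no combined region lay within 10 kb on either side, against 966 short regions (6.07%). Of the 20 there were 5 on 2R, 5 on 3L, 2 each on X, 3R and 3RHet, and 1 each on 2L, 2RHet, 3LHet and U. The one at 2R 117612 to 120712 (3101 bp, score 0.338) was 57430 bp from its nearer neighbour and was met by neither replicate. The one at X 10967123 to 10972154 (5032 bp, score 0.591), met by replicate 1, was the longest on X.

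The surroundings were denser in enriched regions well beyond the next neighbour. Over the 10 kb on each side, not counting the region itself, combined regions covered a median of 30.1% around long unshared regions and 22.2% around short ones. The difference of 7.91 percentage points was 4.18 when only regions with scores at or above the median of the list were kept. That filter also took lower-scoring regions out of the flanks, so these 2 differences are not on the same footing. The difference kept its direction within each major arm, with 27.4% and 22.3% on 2L, 28.6% and 22.2% on 3L, 33.8% and 27.2% on 2R, 34.2% and 26.1% on 3R, and 19.6% and 12.6% on X. More than 50% of the flanks lay in combined regions for 14.4% of long unshared and 5.92% of short regions.

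The single-replicate lists, read in the flanks alone, showed the same difference in each replicate. These bases lie outside the regions that the rule judged, although they come from the same libraries. On the major arms the replicate 1 list covered 4.90% of the 10 kb flanks of long unshared regions, against 3.37% around short regions. The replicate 2 list covered 6.10% and 4.25%. The ratio of long unshared to short was 1.46 in replicate 1 and 1.43 in replicate 2 (1.45 ± 0.0150, SD, n = 2). With 2 replicates no permutation test can reach p = 0.05, and none was made. The ratio exceeded 1 in both replicates on each of the 5 arms, with arm means of 1.36 on 2R and 3R, 1.37 on 3L, 1.43 on 2L and 1.51 on X. Flanks of long shared regions were denser still, at 5.81% in replicate 1 and 7.33% in replicate 2.

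Over the major arms together the excess faded with distance. In the combined list the ratio of flank coverage, long unshared over short, was 1.34 at 1 to 2 kb from the edge, 1.29 at 5 to 10 kb and 1.18 at 25 to 50 kb on the major arms. Single arms differed. At these distances the ratio was 1.14, 1.32 and 1.12 on 2R and 1.25, 1.52 and 1.38 on X. From 1 to 2 kb to 25 to 50 kb it fell from 1.30 to 1.10 on 2L, 1.42 to 1.18 on 3L and 1.36 to 1.12 on 3R. In the replicate lists the mean ratio was 1.504 ± 0.0245 at 1 to 2 kb, 1.46 ± 0.00883 at 5 to 10 kb and 1.24 ± 0.00272 at 25 to 50 kb (SD, n = 2). Within the first 1 kb coverage was low around all kinds of region, at 16.9% for long unshared, 17.1% for long shared and 12.5% for short regions in the combined list, and the replicate ratio there was 1.09 ± 0.0573.

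**Figure D4:**
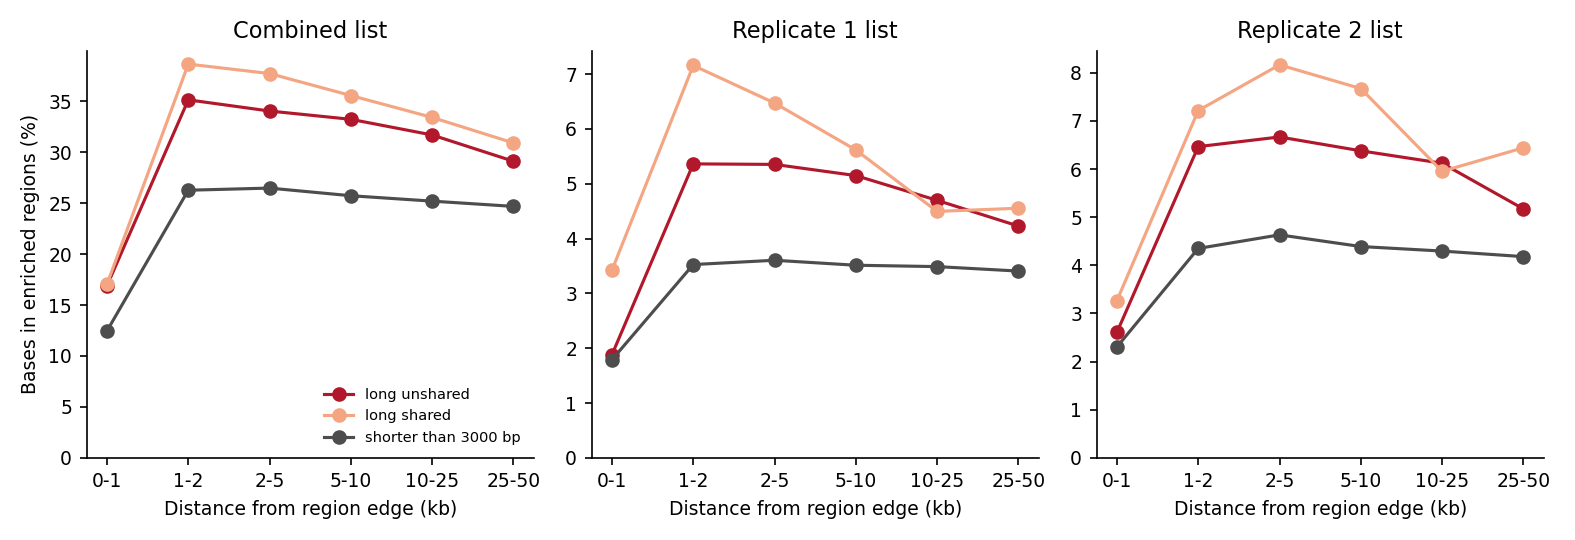
Percentage of bases in enriched regions (y axis) by distance from the region edge (x axis, kb), in the combined list and in each replicate list, on the major arms. Points are long unshared (615), long shared (188) and short regions (15075). Long unshared regions lie above short ones at every distance in all 3 lists, and at 25 to 50 kb the combined values are 29.1% and 24.7%.

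Long unshared regions that neither replicate list met still had replicate regions near them. Of these 222, replicate 1 had a region within 10 kb of 105 (47.3%) and replicate 2 of 106 (47.7%). Among short regions met by neither, the shares were 33.7% and 39.4%. Both replicate lists had one in the flanks of 58 (26.1%), against 17.3% of those short regions, and neither list had one for 69 (31.1%), against 44.2%.

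Flank density in the combined list was higher in each longer class of regions. Among regions of the major arms not met by both replicates, the median combined coverage of the flanks was 21.3% for regions of 1001 to 1100 bp, 24.0% for 1501 to 2000 bp and 27.3% from 2501 bp up to the limit. It was 28.7% for 3000 to 3500 bp, 33.8% for 4001 to 5000 bp and 35.7% for the 43 regions above 5000 bp. The mean of the 2 replicate lists rose likewise, at 3.42% ± 0.526, 3.91% ± 0.706, 4.68% ± 0.420, 5.27% ± 1.02, 5.54% ± 0.222 and 7.35% ± 0.291 in the same classes (SD, n = 2). At 3000 to 3500 bp, 4001 to 5000 bp and above 5000 bp replicate 1 had 4.55%, 5.39% and 7.14%. Replicate 2 had 5.99%, 5.70% and 7.55% there, so it did not rise at each step. The share lying on the right arms was 43.7% in the shortest of these classes and 79.1% above 5000 bp. Among long unshared regions of the major arms alone, length and flank coverage correlated weakly across regions (r = 0.116, rho = 0.1204, 615 regions, which are not independent).

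The last comparison concerned the scores. Long unshared regions scored much like short ones at the median and varied less. Their median score was 0.421, with the middle 50% between 0.392 and 0.459, against 0.414 and 0.372 to 0.459 for short regions. The middle 50% spanned 0.0671 for long unshared and 0.0874 for short regions, and on the major arms alone 0.0634 and 0.0830. The narrow span was not particular to long regions. Unshared regions of 2001 to 2500 bp spanned 0.0668, and 0.0656 on the major arms. Those from 2501 bp up to the limit spanned 0.0767 and 0.0731. The standard deviation was 0.0663 over long unshared and 0.220 over short regions, but on the major arms alone 0.0558 and 0.109. Of the 259 short regions that scored above 1, 210 lay off those arms. Both ends of the range were thinner: 1 long unshared region (0.156%) scored above 1, against 1.63% of short ones, and 3 (0.468%) scored below 0.3, against 587 (3.69%). Long shared regions scored higher, at a median of 0.464. Among long unshared regions the median was 0.409 where neither replicate met them, 0.424 with replicate 1 alone and 0.435 with replicate 2 alone.

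Scores differed more between X and the autosomal arms than between long unshared and short regions within an arm. Among the 4 autosomal arms the medians of short regions were alike, at 0.401 to 0.403. On X the medians were 0.533 for long unshared and 0.515 for short regions, and on the autosomal arms 0.415 and 0.402. The difference, long unshared minus short, was positive on each major arm, and ran from 0.00782 on 3R over 0.00929 on 2L, 0.0124 on 3L and 0.0184 on X to 0.0215 on 2R. Each of these is small beside the middle 50% of scores on its arm. Over all sequences the difference was 0.00769. It grew to 0.0178 with the long shared regions included and to 0.0137 against short regions of at least 1500 bp. It shrank to 0.000334 when replicate 1 was left out of the rule. With only scores at or above the median of the list kept, it turned to -0.00617. That filter acts on the compared score itself, and the 2 kinds differ in spread, so it cannot decide the direction. On U the difference was the other way, with medians of 0.522 for the 8 long unshared regions and 0.882 for the 376 short ones. On the 4 autosomal Het sequences the medians were 0.481 and 0.495.

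The score did not climb with length in a simple way. On the autosomal arms, regions not met by both replicates had median scores of 0.429 at 1001 to 1100 bp, 0.376 at 1251 to 1500 bp and 0.429 at 2001 to 2500 bp. Long unshared regions there had 0.409 at 3000 to 3500 bp, 0.418 at 3501 to 4000 bp, 0.421 at 4001 to 5000 bp and 0.433 above 5000 bp. Off the major arms the shortest class had a median of 0.936 and held 112 regions with a score over 1, whereas the 19 long unshared regions of 3000 to 3500 bp there had a median of 0.499. The 5 classes of short regions in between had medians of 0.501 to 0.560 there.

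**Figure D5:**
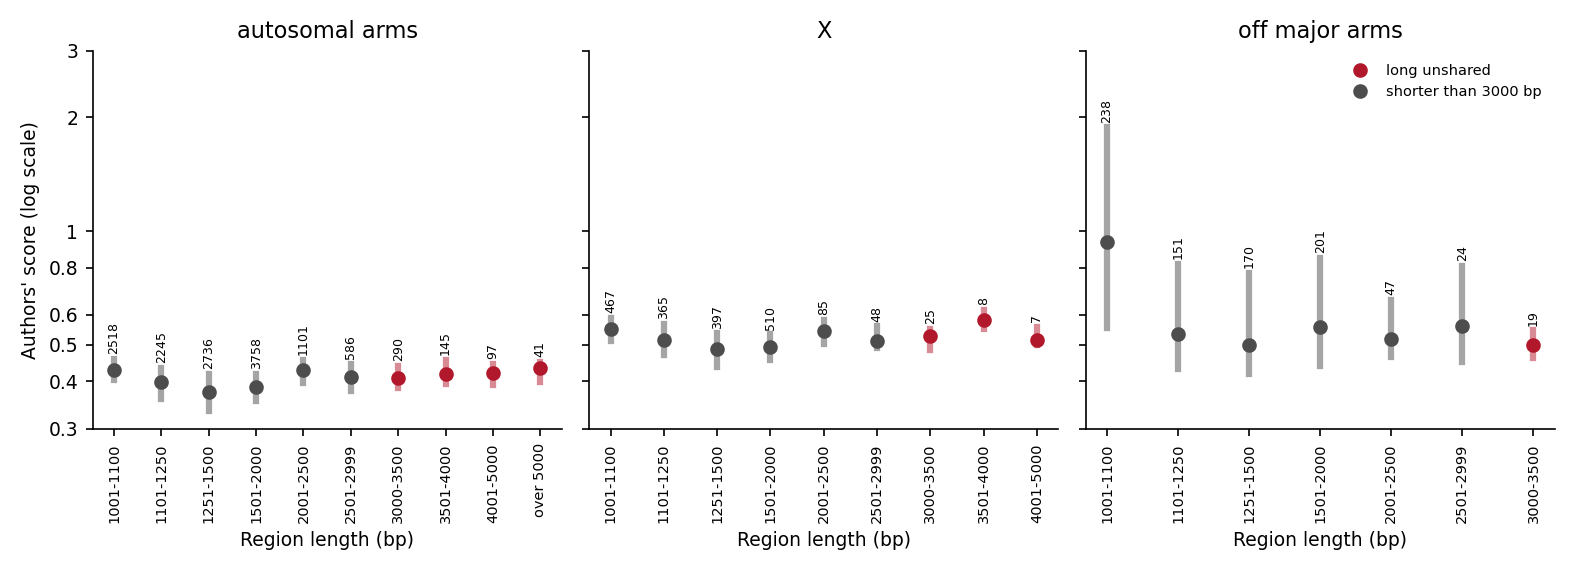
Authors' scores (y axis, log scale) by region length (x axis, bp) for combined regions not met by both replicate lists, on the autosomal arms, on X and off the major arms. Points are medians, bars the middle 50% and small figures the number of regions, and classes with fewer than 5 are left out. Medians of long unshared regions lie between 0.409 and 0.433 on the autosomal arms, and the widest bars are those of short regions off the major arms.

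The top 10 long unshared regions by score ran from 0.598 to 1.10 and measured 3020 to 4179 bp. X held 5, U 3, and 3RHet and 2R 1 each. The highest was U 4230061 to 4233253 (3193 bp, score 1.10), followed by U 3489990 to 3493258 (3269 bp, score 0.776) and 3RHet 2314263 to 2317825 (3563 bp, score 0.748). The region at U 3489990 was met by replicate 2 over 44.3% of its length, and the other two by neither replicate. The single one from an autosomal arm, 2R 16614154 to 16617854 (3701 bp, score 0.610), was met by replicate 2 over 85.1%. Of the 10, replicate 2 alone met 6, replicate 1 alone met 2 and neither met 2. The 5 lowest, 0.266 to 0.306, were 2L 20102944 to 20106077, 2R 13456424 to 13459577, 2L 19880407 to 19885111, 3R 2671499 to 2674764 and the 3LHet region of 6203 bp named above. Replicate 1 alone met 3 of these despite the low score in the combined list, over 54.9%, 58.9% and 34.6% of their lengths.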

How the data were processed

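Histone H3 was measured by ChIP-seq in heads of wild type flies with 2 ChIP and 2 Input libraries. Per the file headers, the authors deposited regions of significant enrichment on FlyBase release 5, 1 list for each ChIP replicate and 1 joint list, with a start, an end and a score for each region. Bowtie 0.12.7 was used per the submitters' processing notes. The sources used here name neither the caller and its threshold nor the way replicates were joined, and they leave the scale of the deposited score unstated. The sequence headers of the combined list name 14 sequences. In all, 2 combined regions ran past a sequence end, 0 of them long unshared, and no flank base beyond an end was counted.

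Overlaps, gaps, flanks of 10 kb, runs (20 kb) and 1 Mb windows were computed with Python 3.11.15, numpy 2.4.6, pandas 2.3.3 and scipy 1.17.1, and plotted with matplotlib 3.10.9. The interval functions were tested on simulated data. Shares have exact Clopper-Pearson 95% intervals. Nothing was tested between kinds of region, since regions are no replicates and 1 combined list exists. The long unshared regions, the division of arms and the measures were chosen with earlier results of these data known. Regions named are the 10 longest, the 10 highest and 5 lowest in score, the 3 largest runs and fullest windows and those off the major arms. Other named regions (close pairs, isolated regions, the most covered ones and the X window) were chosen after their values were seen. The planned look at bases and genes was not run, since the gene table at hand is on release 6.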

Additional observations from a re-analysis of the deposited data

Results flagged for a closer look

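The score difference between long unshared and short regions was turned round on 2 sequences with at least 5 long unshared regions. It was positive on all 5 major arms, but on U it was -0.360, with medians of 0.522 for 8 long unshared and 0.882 for 376 short regions, and on 2RHet it was -0.0551, with medians of 0.448 for 5 and 0.504 for 153. Each value rests on the 1 combined list, and the difference between these sequences and the arms was not tested.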

How the results depend on the processing

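Of the values recomputed under the alternatives, 67 stayed within 1.5 times (counts), within the 95% interval of the share or median, or within 1 SD over replicates. Another 25 moved without turning and 2 turned round. Some of the 67 could not move. A change of the short regions compared leaves the number of long unshared regions and the ratios between arms as they were. Keeping the major arms alone also leaves the ratios between arms unchanged. Asking for a 25% overlap of the shorter region with each replicate list changed no value. The number of long unshared regions, 641, became 1300 with a limit of 2500 bp, 151 with 4000 bp, 1586 after merging regions closer than 500 bp and 353 with scores at or above the median. With 1 replicate left out it was 397 to 466, the lower without replicate 1, since every region met by the replicate 2 list then leaves. The score difference of 0.00769 became 0.0178 with shared long regions kept and 0.0137 against short regions of at least 1500 bp. It was 0.000334 to 0.00704 with 1 replicate left out, and it turned to -0.00617 with scores at or above the median. That last filter acts on the compared score itself, so it cannot decide the direction. The ratio of right to left arms, 1.31, was 2.22 with a limit of 4000 bp. The distance ratio of 0.604 became 0.713 against short regions of at least 1500 bp. The long-neighbour ratio of 1.62 turned to 0.686 with a limit of 4000 bp. The difference in combined flank coverage, 7.91 percentage points, was 11.5 with 4000 bp, 6.10 against short regions of at least 1500 bp, 4.18 with scores at or above the median and 5.74 in flanks of 50 kb. The score filter also took combined regions out of the flanks. The replicate flank ratio of 1.45 was 1.37 with 2500 bp, 1.61 with 4000 bp, 1.51 with shared regions kept, 1.33 against short regions of at least 1500 bp, 1.38 after merging, 1.59 with scores at or above the median, 1.34 in flanks of 50 kb and 1.38 to 1.46 with 1 replicate left out. Runs held 34.9% of long unshared regions at 20 kb, 21.5% at 10 kb and 55.4% at 50 kb, and 5.98% of 1 Mb windows but 18.2% of 500 kb windows had none. Except for the number without replicate 1, the cause was not tested. The ratio of X to autosomal arms stayed below 1 throughout, at 0.442 to 0.612 with 1 replicate left out. Merging gave no score. No paired analysis was possible because no result comes from a test between the H3 ChIP and Input groups, whose numbers pair a library only with its own Input. Depth is unknown and limits every absence from a list.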
